A study of Homo sapiens with 6 samples.

Results

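CPVL and 7 genes of lysosomal cathepsins were followed across 3 human lung cancer cell lines. The serine carboxypeptidases CPVL and CTSA and the cathepsins CTSB, CTSC, CTSD, CTSH, CTSL and CTSZ were taken by name, 8 of the 26475 genes in the deposited table of transcript levels (TPM, a length-corrected share of the messenger RNA). They were chosen by family with results of these libraries known. CPVL was already known to be far higher in PC9-BrM4 than in PC9, and the TPM of all 3 lines was in view for the whole set. The cathepsin genes left out reached at most 81.9 TPM in any library (CTSF), and no cathepsin in the set was below 112 TPM (CTSL). The differences of the 8 genes are therefore given as a description, without p-values.

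Lysosomal peptidases are made as inactive precursors, carried to the lysosome largely by mannose 6-phosphate receptors, and matured there at acid pH. Cathepsins B, C, H, L and Z use an active-site cysteine, cathepsin D an aspartate, and cathepsin A and CPVL a serine. Cathepsins released from tumour cells or from their surroundings can cut matrix and cell adhesion proteins, and cystatins and some serpins inhibit them. CPVL, or carboxypeptidase vitellogenic-like, was first described in macrophages and is also abundant in some dendritic cells.

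PC9 is a lung adenocarcinoma line with an activating EGFR deletion, and PC9-BrM4 is, to present knowledge, a subline of it obtained from brain metastases in mice. The labels do not spell out AMG, the ending of the third line's name. All 3 lines were cultured in MGS, which the labels do not spell out, and each gave 2 libraries. Separate cultures for the 2 libraries of a line are not stated, nor whether a line is 1 clone, nor the meaning of "mix" in the library names, so the spread between libraries may be technical. As bulk RNA, the libraries cannot tell fewer cells expressing a gene from less RNA per cell. No counts were used, so the depth is unknown; between 13848 and 14171 genes per library were at 1 TPM or more. Epithelial markers were abundant in every library, with EPCAM between 634 and 856 TPM, whereas the lung lineage genes NKX2-1 and SFTPB were at or near 0.

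CPVL separated the 3 lines by the widest margin of the 8 genes. In the PC9 libraries it was listed at 0 and 0.547 TPM, in PC9-BrM4 at 44.1 and 42.6 TPM, and in PC9-AMG at 3.48 and 5.61 TPM. The libraries of the 3 lines did not overlap: PC9-BrM4 was highest, PC9-AMG intermediate and PC9 at or near 0. On the log2(TPM + 1) scale, which understates differences of low genes, PC9-BrM4 stood 5.16 ± 0.25 above PC9 (difference ± SE of a limma fit over 14627 genes) and PC9-AMG 2.13 ± 0.25 above PC9. The 2 differences share the PC9 libraries. PC9-BrM4 exceeded PC9-AMG by 9.54-fold in mean TPM. No fold against PC9 is given, since 1 of its libraries is listed at 0. Leaving out 1 library at a time gave 4.84 to 5.47 for PC9-BrM4 over PC9 and 1.81 to 2.44 for PC9-AMG over PC9, and with 0.1 in place of 1 added to TPM the 2 differences were 7.42 and 4.15. In rank by mean TPM among the genes tested, CPVL stood at 14528 in PC9, 11085 in PC9-AMG and 4127 in PC9-BrM4. The authors' coverage, the mean number of reads over each base, followed the same order, at 0 and 0.343 in PC9, 26.7 and 25.4 in PC9-BrM4, and 2.86 and 4.0 in PC9-AMG. Coverage comes from the same reads as TPM, so its order is not separate support.

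**Figure D1:**
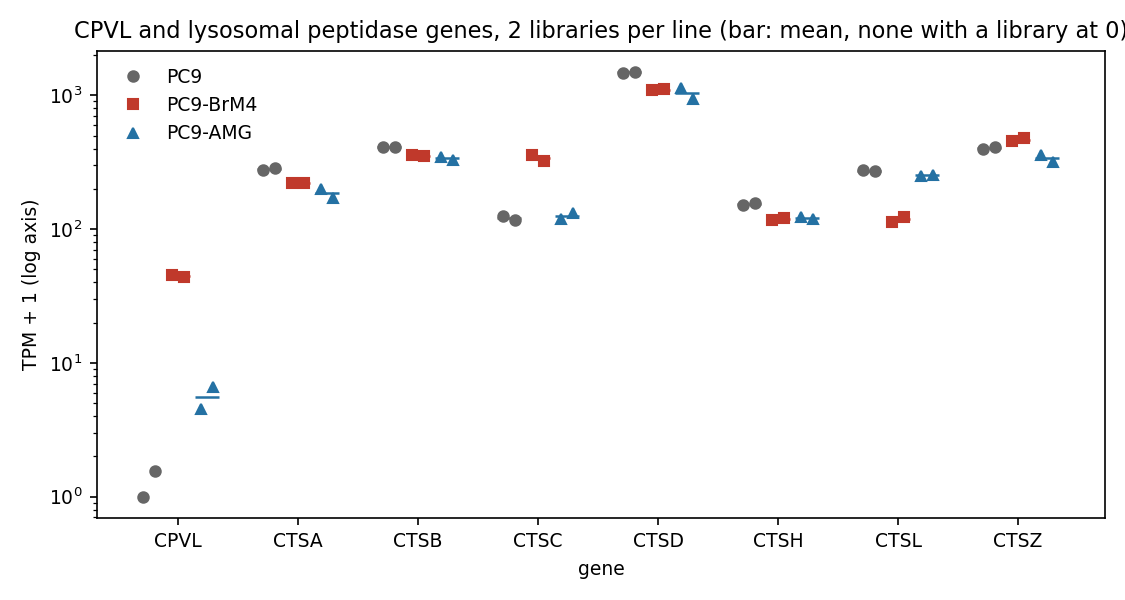
TPM + 1 (log axis) of CPVL and 7 cathepsin genes in the 3 lines, each point 1 of 2 libraries and each short bar the mean. No bar is drawn for CPVL in PC9, where 1 library is listed at 0. CPVL spans 0 to 44.1 TPM, whereas each of the other genes lies at 112 TPM or more in every library, with CTSC high and CTSL low in PC9-BrM4.

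CPVL lies on chromosome 7 (28995631 to 29146537, minus strand, hg38). The start of the gene in the files equals the start of a RefSeq model, so the 250 bases before it are shown to let a reader see the sequence in front of the gene that differed most. They run 5′ to 3′ in gene direction and come from the RefSeq promoter table (GRCh38.p14), in which 7 of the 8 genes were matched.
CPVL, chr7:29146538-29146787, minus strand: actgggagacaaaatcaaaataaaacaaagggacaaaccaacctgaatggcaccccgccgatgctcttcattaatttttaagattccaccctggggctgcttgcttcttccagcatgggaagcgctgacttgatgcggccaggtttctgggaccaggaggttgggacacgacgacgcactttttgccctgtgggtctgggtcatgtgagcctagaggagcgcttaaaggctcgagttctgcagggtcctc
The window was searched on both strands for CACGTG (the E-box core bound by TFEB and related factors, marked by capitals where present), its extension GTCACGTG (the core of the CLEAR element of lysosomal genes, which holds the same core), TGANTCA for AP-1 sites, TATAAA for the TATA box and, as a GC box of the type bound by Sp1, GGGCGG. None of these motifs occurs in it. The table holds 2 other starts of CPVL, 43520 and 48730 bases upstream, and the window of the farther one has 1 GGGCGG and a GC content of 60.0%. Of 35116 promoters of the same length, 6.34% hold CACGTG, 2.16% GTCACGTG, 6.57% TGANTCA and 10.7% TATAAA. The GC box was the most frequent, in 42.6% of them. A GC content of 52.8% compares with a median of 58.0% over all promoters.

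The genes around CPVL had much smaller differences. Of the 5 tested genes on each side, HOXA10-AS, HOXA11-AS, HIBADH, TAX1BP1 and CREB5 on one and PRR15, LOC646762, DPY19L2P3, SCRN1 and FKBP14 on the other, LOC646762 rose and CREB5 fell in PC9-BrM4 against PC9, and the median log2 difference was 0.16. CREB5, which encodes a transcription factor of the CREB family, was at 5.0 and 4.51 TPM in PC9 and at 1.89 and 1.06 TPM in PC9-BrM4 (log2 difference -1.24, limma adjusted p = 0.00491). LOC646762 rose by 0.82 (limma adjusted p = 0.0149), with adjusted p from 0.0628 to 0.113 without PC9 library 1, PC9 library 2 or PC9-BrM4 library 1. In PC9-AMG against PC9, PRR15 alone among the 10 was called, at 65.2 and 54.5 TPM in PC9 and 34.2 and 35.6 TPM in PC9-AMG (-0.76, limma adjusted p = 0.00884); its adjusted p was 0.114 without PC9 library 1, 0.0514 without PC9-AMG library 1 and 0.0581 without PC9-AMG library 2. HOXA10-AS had a difference of 0.75 there (limma adjusted p = 0.0606) and was called with median centring (0.0382) and quantile normalization (0.0335). The median of the 10 was -0.09. LOC100506497 and LOC101928168, which overlap CPVL on the other strand, were listed at 0 in all 6 libraries.

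**Figure D2:**
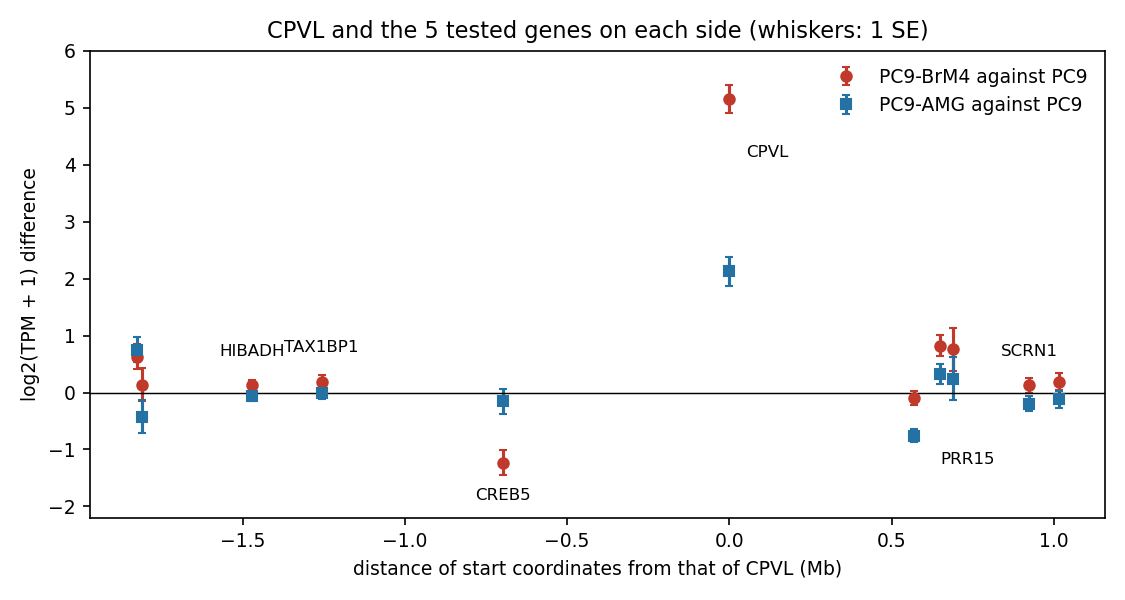
Log2(TPM + 1) difference from PC9 (whiskers 1 SE) of CPVL and the 5 tested genes on each side, against the distance of their start coordinates from that of CPVL in Mb. CPVL stands at 5.16 in PC9-BrM4 and 2.13 in PC9-AMG, and CREB5 is at -1.24 in PC9-BrM4.

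By profile, the 5 genes nearest to CPVL were GGT6, C5orf46, EDNRB, KRT81 and FHL1. Likeness was the root mean square difference of log2(TPM + 1), centred on each gene's mean, over the 6 libraries, and ran from 0.602 for GGT6 to 0.809 for FHL1. GGT6, a member of the gamma-glutamyltransferase family, was at 1.92 and 2.61 TPM in PC9, 44.9 and 43.1 in PC9-BrM4, and 9.37 and 8.56 in PC9-AMG. EDNRB, the endothelin receptor type B, was listed at 0 in both PC9 libraries, at 10.5 and 8.83 TPM in PC9-BrM4 and at 1.04 and 1.06 TPM in PC9-AMG. Both genes had the order of CPVL, with PC9-AMG between the other lines, which their choice by likeness to CPVL favours. The nearest of the cathepsins was CTSC, at rank 134 of the tested genes (1.52).

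CTSA encodes cathepsin A, a carboxypeptidase that also protects beta-galactosidase and neuraminidase 1 in a complex. It was at 276 and 285 TPM in PC9, 220 and 220 TPM in PC9-BrM4, and 200 and 169 TPM in PC9-AMG. The lines did not overlap, and PC9 was highest. The log2 difference was -0.35 ± 0.10 for PC9-BrM4 and -0.61 ± 0.10 for PC9-AMG against PC9, opposite in sign to CPVL, the other serine carboxypeptidase of the set. CTSA (chromosome 20, 45890952 to 45898819, plus strand) overlaps PLTP, a phospholipid transfer protein gene on the other strand, by 200 bases. PLTP, named after its values were seen, was at 189 and 187 TPM in PC9, 44.1 and 49.9 TPM in PC9-BrM4, and 189 and 152 TPM in PC9-AMG (log2 difference -1.98 in PC9-BrM4 against PC9, limma adjusted p = 7.64e-06). Whether reads were counted by strand is not given in the sources used here, so the part of PLTP reads in the CTSA values was not tested.

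CTSD encodes cathepsin D, the aspartic endopeptidase that begins the breakdown of many lysosomal proteins, and was the most abundant of the 8 in every library. It was at 1475 and 1495 TPM in PC9, 1090 and 1115 TPM in PC9-BrM4, and 1138 and 944 TPM in PC9-AMG. PC9-BrM4 and PC9-AMG both lay below PC9, and their libraries overlapped each other. The log2 difference from PC9 was -0.43 ± 0.09 for PC9-BrM4 and -0.52 ± 0.09 for PC9-AMG.

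CTSA and CTSD were the 2 genes of the set whose promoter windows held CACGTG; CPVL, CTSC, CTSH, CTSL and CTSZ had none, and CTSB was not matched. The 250 bases before the RefSeq start are shown 5′ to 3′ in gene direction, with capitals at each CACGTG.
CTSA, chr20:45891085-45891334, plus strand: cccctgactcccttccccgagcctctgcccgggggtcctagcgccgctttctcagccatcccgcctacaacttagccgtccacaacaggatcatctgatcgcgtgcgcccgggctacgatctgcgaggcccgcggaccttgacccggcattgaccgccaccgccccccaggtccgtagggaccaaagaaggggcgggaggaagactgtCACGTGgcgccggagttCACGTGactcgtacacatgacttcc
CTSD, chr11:1763928-1764177, minus strand: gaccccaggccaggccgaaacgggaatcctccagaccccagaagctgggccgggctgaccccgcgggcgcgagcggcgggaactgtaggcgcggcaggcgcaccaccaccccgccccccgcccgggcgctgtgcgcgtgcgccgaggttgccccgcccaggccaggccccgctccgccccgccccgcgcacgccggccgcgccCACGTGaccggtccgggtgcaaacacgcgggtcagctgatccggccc
In CTSA there are 2 matches, each part of GTCACGTG on one or the other strand, and in CTSD 1 match, also part of GTCACGTG. A match is a description of the letters, not a binding site. The RefSeq start of CTSA lies 383 bases from the start in the files, so its window may not be the one in use here.

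CTSC was high in PC9-BrM4. The gene encodes dipeptidyl peptidase 1, which removes dipeptides from the ends of proteins and activates serine proteases of immune cells. It was at 124 and 115 TPM in PC9, 358 and 324 TPM in PC9-BrM4, and 118 and 130 TPM in PC9-AMG. PC9-BrM4 was 2.85 times the PC9 mean (log2 difference 1.5 ± 0.10), and the PC9-AMG libraries overlapped those of PC9 (0.05 ± 0.10). The level of CTSC relative to the other genes is uncertain. Its coverage was 0.0763 to 0.108 reads per base for each TPM, against 0.579 to 0.822 for the other 7 genes. Scaled by the median ratio of all tested genes, an addition chosen after seeing the data, CTSC coverage was 15.9 and 14.8 in PC9, 44.8 and 40.7 in PC9-BrM4, and 15.4 and 17.0 in PC9-AMG. The ratio of PC9-BrM4 to PC9 was 2.79. Coverage and TPM come from the same reads, and for CTSD, CTSH and CTSZ their ratio equalled the median. The nearness of the 2 CTSC ratios is therefore no separate support. The level of CTSC differed between the 2 values. CTSC lies on chromosome 11 (88293592 to 88337773, minus strand).

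CTSL went the other way in the same line. It encodes cathepsin L, a cysteine endopeptidase, on chromosome 9 (87726059 to 87731469, plus strand). It was at 274 and 271 TPM in PC9, 112 and 123 TPM in PC9-BrM4, and 248 and 254 TPM in PC9-AMG. PC9 exceeded PC9-BrM4 by 2.32-fold (log2 difference -1.21 ± 0.09), while PC9-AMG stood only 0.12 below PC9 (-0.12 ± 0.09), without overlap. PC9-AMG was 1.09 ± 0.09 above PC9-BrM4.

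The other 3 cysteine cathepsins differed less between the lines. CTSH, an aminopeptidase on chromosome 15 (78921750 to 78945078), was at 150 and 156 TPM in PC9, 117 and 119 TPM in PC9-BrM4, and 122 and 119 TPM in PC9-AMG. PC9-BrM4 and PC9-AMG overlapped each other and lay below PC9 (log2 differences -0.37 ± 0.09 and -0.34 ± 0.09). CTSB, an endopeptidase that also acts as a dipeptidyl carboxypeptidase, was at 411 and 408 TPM in PC9, 358 and 350 TPM in PC9-BrM4, and 347 and 326 TPM in PC9-AMG. Its differences from PC9 were -0.21 ± 0.08 and -0.28 ± 0.08. CTSZ, a carboxypeptidase on chromosome 20 (58995187 to 59007254), was at 397 and 407 TPM in PC9, 455 and 476 TPM in PC9-BrM4, and 358 and 319 TPM in PC9-AMG. The log2 difference of CTSZ from PC9 was 0.21 ± 0.08 in PC9-BrM4 (0.11 with median centring) and -0.25 ± 0.08 in PC9-AMG (-0.17 without PC9-AMG library 2), neither of them past the threshold used below for all genes. PC9-AMG against PC9-BrM4 gave -0.46 ± 0.08, and -0.29 with median centring. The 5 genes whose profile was nearest to CTSH were NUCB2, HIST1H2BD, ZNF700, ACOT2 and ACOT1 (0.0278 to 0.0451), of which ACOT1 and ACOT2 are close copies whose reads may be shared. CTSB stood at rank 62 in likeness to CTSH and CTSD at rank 208.

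**Figure D3:**
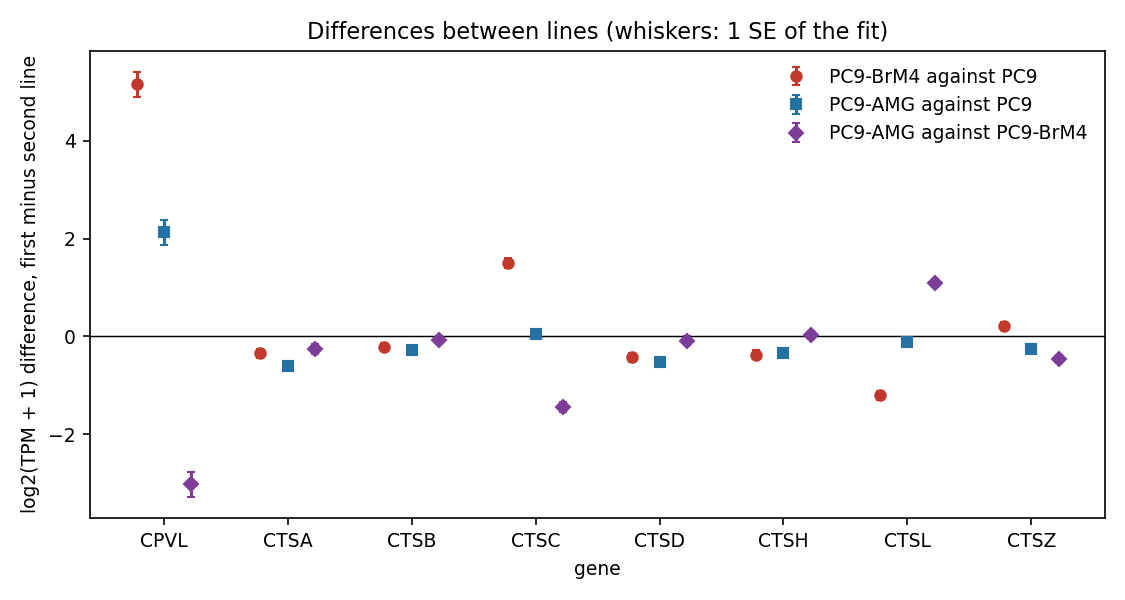
Log2(TPM + 1) difference (first minus second line, whiskers 1 SE) of the 8 genes in the 3 comparisons. CPVL and CTSC lie above 0 and CTSL lies below it in PC9-BrM4 against PC9, at 5.16, 1.5 and -1.21.

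The threshold used for all genes was a limma Benjamini-Hochberg adjusted p below 0.05, and genes past it are called. In PC9-BrM4 against PC9, 6 of the 8 genes were called, with CPVL and CTSC higher and CTSA, CTSD, CTSH and CTSL lower. Over all tested genes 16.3% were called, 9.89% higher and 6.45% lower. In PC9-AMG against PC9, 4 were called, CPVL higher and CTSA, CTSD and CTSH lower, against 7.49% of all tested genes, 3.67% higher and 3.82% lower. In PC9-AMG against PC9-BrM4, 4 were called, CTSL higher and CPVL, CTSC and CTSZ lower, against 18.6% of all tested genes, 6.31% higher and 12.3% lower. Since the genes were selected on these libraries, nothing is read from the counts or calls, nor from whether a call holds in another setting. CPVL, CTSC and CTSL were called in PC9-BrM4 against PC9 in every setting and with any 1 library left out, while only 3 or 4 of the 8 were called with 1 library left out. In PC9-AMG against PC9, CPVL alone was called without PC9 library 1, PC9 library 2 or PC9-AMG library 2. Median centring left CPVL and CTSA called there, and in PC9-AMG against PC9-BrM4 it ended the call of CTSZ.

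The order of levels changed between the lines. In PC9 the mean TPM ran CTSD, CTSB, CTSZ, CTSA, CTSL, CTSH, CTSC and CPVL, with no overlap between neighbours. In PC9-BrM4 it ran CTSD, CTSZ, CTSB, CTSC, CTSA, CTSH, CTSL and CPVL, where CTSB and CTSC overlapped, as did CTSH and CTSL. In PC9-AMG it ran CTSD, CTSZ, CTSB, CTSL, CTSA, CTSC, CTSH and CPVL, where CTSZ and CTSB overlapped, as did CTSC and CTSH. The 8 genes summed to 3106 and 3138 TPM in PC9, 2754 and 2768 TPM in PC9-BrM4, and 2534 and 2265 TPM in PC9-AMG. CTSD made up 47.5% to 47.6% of the sum in PC9, 39.6% to 40.3% in PC9-BrM4 and 41.7% to 44.9% in PC9-AMG. The share of CTSC was 3.68% to 3.99% in PC9 and 11.7% to 13.0% in PC9-BrM4, and that of CTSL was 8.63% to 8.81% and 4.07% to 4.43%. These shares carry the uncertainty of the CTSC level given above.

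**Figure D4:**
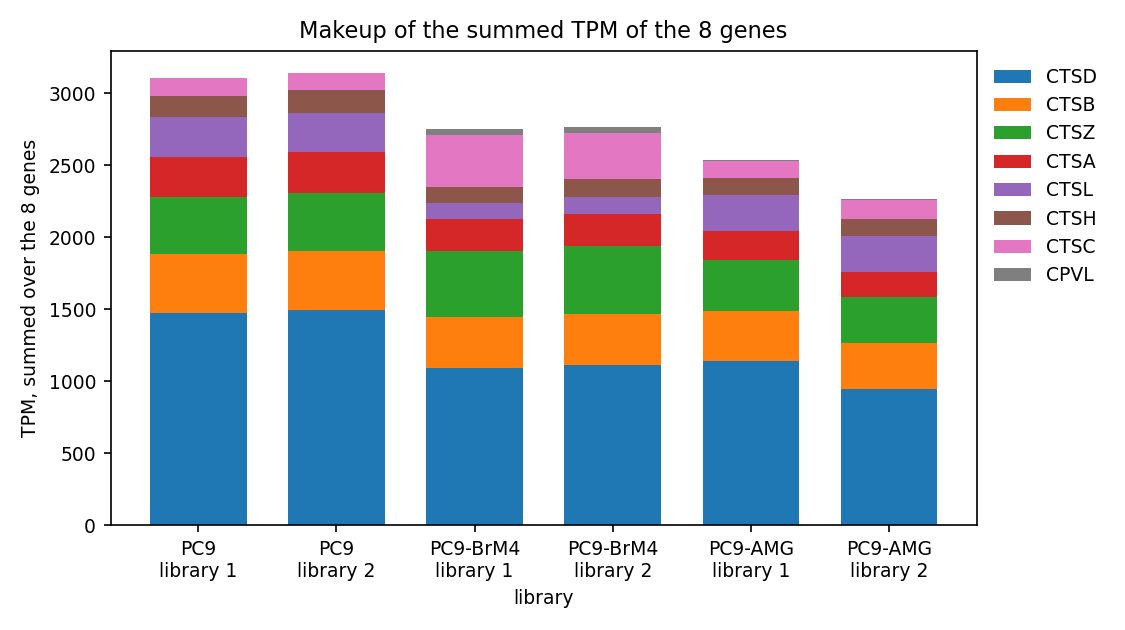
TPM summed over the 8 genes in each library, stacked by gene. CTSD is the largest block in all 6 libraries, the CTSC block widens and the CTSL block narrows in PC9-BrM4, and the sum is lowest in PC9-AMG, at 2534 and 2265 TPM.

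To see whether lysosomal and related genes moved, 132 genes in 8 lists were examined, none of which belongs to the set. Of these, 123 passed the filter of 1 TPM in 2 libraries. The lists also take in carboxypeptidases and protease inhibitors whose products need not lie in the lysosome. All 8 lists are counted together as related lysosomal genes. In PC9-BrM4 against PC9, 11 rose and 13 fell (19.5%, against 16.3% of all tested genes), and the median log2 difference was 0.07 against 0.09 over all tested genes. In PC9-AMG against PC9, 3 rose and 8 fell (8.94%, against 7.49%), with a median of -0.12 against -0.05. In PC9-AMG against PC9-BrM4, 11 rose and 30 fell (33.3%, against 18.6%), with a median of -0.22 against -0.13. The splits depend on the processing. With log2 values centred on the library median, the first was 7 higher and 15 lower and the last 14 and 10, turned in direction. Quantile normalization gave 10 and 14 for the first and 13 and 17 for the last, and the filter at 5 TPM turned the first to 16 and 10. Centring moved the median of all tested genes by -0.10, 0.07 and 0.17 in the 3 comparisons. The calls over all tested genes then split into 917 higher and 1293 lower (1446 and 943 without centring), 685 and 436 (537 and 559), and 1606 and 900 (923 and 1797).

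Among the other cathepsins, 2 of 6 tested fell in PC9-BrM4 against PC9. CTSS, a cathepsin of antigen-presenting cells, was at 16.3 and 16.0 TPM in PC9, 9.03 and 8.40 TPM in PC9-BrM4, and 13.7 and 15.7 TPM in PC9-AMG (-0.82, limma adjusted p = 0.00446, and 0.0534 without PC9 library 1). CTSF fell by 0.38 (limma adjusted p = 0.0331), with 0.299, 0.16 and 0.12 without PC9 library 1, PC9 library 2 or PC9-BrM4 library 1. CTSV, the closest relative of CTSL, had a difference of 0.34 and was not called (limma adjusted p = 0.0646). In PC9-AMG against PC9, limma called 0 of the 6, and 1 was past an unadjusted p of 0.05.

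Of the 7 other carboxypeptidases and related peptidases, 1 rose and 2 fell in PC9-BrM4 against PC9. CPA4, a metallocarboxypeptidase, was at 8.93 and 8.74 TPM in PC9, 1.68 and 1.78 TPM in PC9-BrM4, and 6.45 and 6.0 TPM in PC9-AMG (-1.85, limma adjusted p = 0.000119). SCPEP1, a serine carboxypeptidase like CPVL and CTSA, was at 18.1 and 14.7 TPM in PC9 and 26.2 and 22.8 TPM in PC9-BrM4 (0.55, limma adjusted p = 0.0301); leaving out any 1 of the 4 libraries gave 0.0522 to 0.309. PRCP, which encodes prolylcarboxypeptidase, had a difference of 0.19 (limma adjusted p = 0.222). CPD fell by 0.89 in PC9-AMG against PC9 (limma adjusted p = 0.0165, and 0.072 to 0.0926 with any 1 library left out).

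Of the 9 other lysosomal hydrolases, limma called 2 higher and 0 lower in PC9-BrM4 against PC9, and 5 and 0 at an unadjusted p of 0.05. PLBD1, a phospholipase B-like protein, was at 18.2 and 21.8 TPM in PC9, 45.2 and 40.8 TPM in PC9-BrM4, and 20.0 and 22.7 TPM in PC9-AMG (1.07, limma adjusted p = 0.000815). Like CTSC, it was high in PC9-BrM4 and overlapped between PC9-AMG and PC9. LGMN, the asparaginyl endopeptidase legumain that matures several cathepsins, differed by -0.06 and -0.10 from PC9 in PC9-BrM4 and PC9-AMG (limma adjusted p = 0.726 and 0.595). TPP1, tripeptidyl peptidase 1, differed by -0.23 and -0.36 (limma adjusted p = 0.215 and 0.0929).

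Among the cathepsin inhibitors, limma called 4 of 8 lower and 0 higher in PC9-BrM4 against PC9, against 6.45% and 9.89% of all tested genes, and 6 and 1 at an unadjusted p of 0.05. The 8 include CST1, CST2 and CST4, which stayed below 5 TPM in every library and each had a PC9-BrM4 library listed at 0. CTSG, the gene of cathepsin G, was listed at 0 in all libraries. SERPINB1, an inhibitor of neutrophil serine proteases including cathepsin G, was at 200 and 193 TPM in PC9, 125 and 118 TPM in PC9-BrM4, and 145 and 156 TPM in PC9-AMG (-0.69, limma adjusted p = 0.000928). CSTA, or cystatin A, fell by 0.47 (limma adjusted p = 0.0479); leaving out any 1 library gave 0.0828 to 0.296. CST3, the secreted cystatin C, was abundant at 612 and 640 TPM in PC9, 506 and 583 TPM in PC9-BrM4, and 622 and 621 TPM in PC9-AMG, and was not called in the 3 comparisons (limma adjusted p = 0.138, 0.956 and 0.139). Without PC9-BrM4 library 2 it was called in PC9-BrM4 against PC9 (-0.31, limma adjusted p = 0.0469) and in PC9-AMG against PC9-BrM4 (0.30, limma adjusted p = 0.0386). CSTB, or cystatin B, had a difference of 0.24 in PC9-BrM4 and -0.07 in PC9-AMG against PC9 (limma adjusted p = 0.0563 and 0.577). In PC9-BrM4 it was called higher with quantile normalization (0.33, limma adjusted p = 0.00444), with the filter at 5 TPM (0.0445) and without PC9-BrM4 library 1 (0.048).

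Of 33 glycosidases, sulfatases, lipases and their activators, 1 rose and 2 fell in PC9-BrM4 against PC9, and 1 rose and 5 fell in PC9-AMG. PSAP, the precursor of the saposins, was between 1474 and 1665 TPM in all libraries and was not called against PC9 in either line. SIAE, GALNS and MANBA fell in PC9-AMG against PC9 by 0.69, 0.55 and 0.66 (limma adjusted p = 0.0103, 0.0191 and 0.0267). Each of these 3 calls was lost without PC9 library 1, PC9 library 2 or PC9-AMG library 2. Those of SIAE and MANBA were also lost without PC9-AMG library 1. In the fits that lost a call, the log2 differences ran from -0.45 (GALNS without PC9-AMG library 2) to -0.75 (MANBA without PC9-AMG library 1). With no filter, GALNS and MANBA were not called (limma adjusted p = 0.0618 and 0.0746).

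The membrane of the lysosome and its contents differed by gene. Of 24 such genes, 4 rose and 2 fell in PC9-BrM4 against PC9. CD63, a tetraspanin of lysosomes and exosomes, was at 853 and 848 TPM in PC9, 573 and 599 TPM in PC9-BrM4, and 888 and 866 TPM in PC9-AMG (-0.54, limma adjusted p = 0.000949). NPC2, a soluble carrier of cholesterol out of the lysosome, was the 1 gene of this list called in PC9-AMG against PC9, at 849 and 880 TPM against 1389 and 1374 TPM in PC9 (-0.68, limma adjusted p = 0.00194). LAMP1 and LAMP2, the main membrane glycoproteins, were not called against PC9 in either line (limma adjusted p = 0.162 and 0.57 in PC9-BrM4, 0.13 and 0.113 in PC9-AMG).

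The V-type proton pump, which acidifies the lysosome, had 2 of 16 genes higher and 1 lower in PC9-BrM4 against PC9. ATP6AP1, an accessory subunit, was at 184 and 183 TPM in PC9, 309 and 311 TPM in PC9-BrM4, and 183 and 173 TPM in PC9-AMG (0.75, limma adjusted p = 0.000305). ATP6V0B was at 181 and 173 TPM in PC9 and 262 and 272 TPM in PC9-AMG (0.59, limma adjusted p = 0.00598, and 0.0535 and 0.0837 without PC9 library 1 or 2).

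Of 20 transcription factors, nutrient sensors and sorting receptors of the lysosome, limma called 1 higher and 0 lower in PC9-BrM4 against PC9, and 5 and 1 at an unadjusted p of 0.05. SORT1, or sortilin, which carries some hydrolases from the Golgi, was at 7.25 and 8.54 TPM in PC9, 17.7 and 15.2 TPM in PC9-BrM4, and 6.88 and 6.34 TPM in PC9-AMG (0.97, limma adjusted p = 0.00342). TFEB, TFE3 and MITF, the factors that bind CLEAR elements, differed by 0.26, 0.11 and 0.01 (limma adjusted p = 0.281, 0.611 and 0.969). The mannose 6-phosphate receptors M6PR and IGF2R differed by -0.09 and 0.29 (limma adjusted p = 0.595 and 0.363). RRAGC, a GTPase of nutrient sensing, rose by 0.47 in PC9-AMG against PC9 (limma adjusted p = 0.0288), and its call was lost without PC9 library 1, PC9 library 2 or PC9-AMG library 2 (0.104 to 0.232).

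The direct comparison of PC9-AMG with PC9-BrM4 called 41 of these genes, against 24 in PC9-BrM4 against PC9. The 2 counts were 25 and 26 with only the 4 libraries compared, and 15 and 16 without PC9-BrM4 library 1. Falls that held in every setting that tested the gene and with any 1 library left out included those of SORT1 (-1.20, limma adjusted p = 0.00111) and SORL1 (-1.09, limma adjusted p = 0.00566), the last a sorting receptor of the same family as SORT1. PLBD1 (-0.98), ATP6AP1 (-0.79) and NPC2 (-0.70) also fell, with limma adjusted p of 0.00146, 0.000269 and 0.000288. CPA4 (1.40), CD63 (0.58) and ATP6V1F (0.52), a subunit of the proton pump, rose, with limma adjusted p of 0.000662, 0.000645 and 0.00386. CTSS rose by 0.69 (limma adjusted p = 0.00991, and 0.0644 without PC9-AMG library 2), in the direction of CTSL. LAMP1 was at 347 and 308 TPM in PC9-BrM4 and 251 and 223 TPM in PC9-AMG (-0.46, limma adjusted p = 0.00908), a call lost with median centring (0.0721), without PC9-BrM4 library 1 (0.0768) and without PC9-AMG library 2 (0.055).

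**Figure D5:**
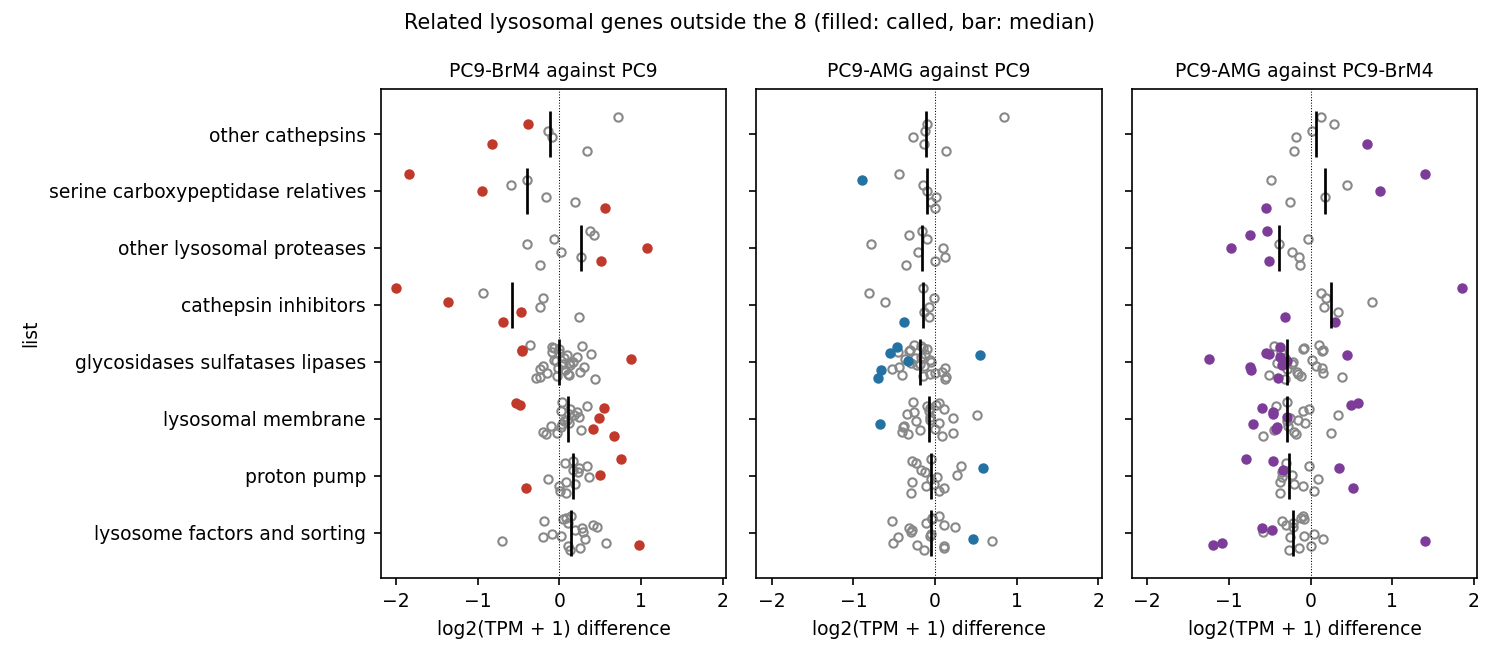
Log2(TPM + 1) difference of 123 lysosomal and related genes outside the set, by list, in the 3 comparisons. Filled points were called by limma, open points were not, and each bar is the median of a list; in PC9-AMG against PC9-BrM4, 30 of the 41 called genes lie below 0, a split that turns to 14 above and 10 below with median centring.

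CPVL is known from macrophages and dendritic cells, and the labels do not say whether MGS holds other cells. Markers of several cell types were therefore read in the same libraries. With hg38 as the genome used, these markers cannot tell whether cells of another species were present. Of 13 microglia and macrophage markers, 8 were listed at 0 in all libraries, namely AIF1, C1QA, C1QB, C1QC, TYROBP, CX3CR1, TREM2 and P2RY12. The list summed to between 11.6 and 12.1 TPM in PC9, 16.8 and 18.5 TPM in PC9-BrM4, and 13.5 and 16.6 TPM in PC9-AMG, nearly all of it CSF1R and ITGAM. The 8 dendritic cell markers summed to between 1.39 and 3.55 TPM in PC9, 0 and 1.99 TPM in PC9-BrM4, and 3.55 and 4.09 TPM in PC9-AMG. Where above 0, this sum was mostly BATF3, a gene at low TPM, and PC9-BrM4 overlapped PC9 in it. The 8 astrocyte markers summed to 22.4 to 23.7, 20.7 to 23.5 and 30.3 to 34.0 TPM, mostly ALDH1L1, with GFAP, S100B and FABP7 at 0. Oligodendrocyte markers summed to 52.6 to 53.4, 51.3 to 55.7 and 45.2 to 49.7 TPM, and fibroblast markers to 9.38 to 11.2, 16.1 to 17.9 and 9.30 to 15.6 TPM. The epithelial list summed to between 15403 and 15639 TPM in PC9, 11456 and 11955 TPM in PC9-BrM4, and 13376 and 13905 TPM in PC9-AMG. Its members did not move together in PC9-BrM4 against PC9. KRT7, KRT18, KRT19 and MUC1 were called lower. EPCAM (851 against 702 TPM) and CDH1 (141 against 108 TPM) had higher means and were not called (limma adjusted p = 0.0535 and 0.0711). The microglia and macrophage sum and the fibroblast sum, the latter nearly all COL1A1, were thus higher in PC9-BrM4 than in PC9 along with CPVL and CTSC. ITGAM rose against PC9 in PC9-BrM4 (0.96, limma adjusted p = 0.00746) and also in PC9-AMG (0.79, limma adjusted p = 0.034). In PC9-AMG against PC9, CPVL was also called higher and CTSC was not called. In PC9-BrM4 against PC9, CSF1R was not called (0.41, limma adjusted p = 0.148). FCER1G went from 1.42 and 0.41 TPM in PC9 to 0 in both PC9-BrM4 libraries. SLC1A3 of the astrocyte list was listed at 0 in PC9 and was at 3.44 and 2.12 TPM in PC9-BrM4 (limma adjusted p = 0.00178). In PC9-AMG it was at 0.652 and 0.361 TPM, not called against PC9 (limma adjusted p = 0.221). SLC1A3 thus had the order of CPVL over the lines, at low levels. The part of these lists in the levels of CPVL and CTSC was not tested.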

How the data were processed

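The 6 mRNA libraries came from the lines PC9, PC9-BrM4 and PC9-AMG, 2 per line, and were made from total RNA with a stranded kit per the labels' protocols. Per the submitters' processing notes, HISAT2 2.1.0, StringTie 1.3.4d and hg38 were used; annotation and strand setting are not given in the sources used here. Per the file headers, the authors' gene tables hold TPM, FPKM and coverage (reads per base, a signal not scaled to depth). TPM was analysed and FPKM was not tested. Coverage is given beside TPM for CPVL and CTSC, as a value from the same reads. No counts were used, so depth is unknown and no count test was run.

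TPM of repeated gene rows was summed; none of the 8 genes had repeated rows. The 14627 genes with at least 1 TPM in 2 libraries were fitted with limma 3.58.1 (R 4.3.3) on log2(TPM + 1), with the mean of each line as coefficients, all 6 libraries, a mean-dependent prior, two-sided tests and Benjamini-Hochberg adjustment, called below 0.05. The fit has 3 residual and 6.81 prior degrees of freedom. The procedure was tested on simulated data. Alternatives were median centring, quantile normalization, a pseudocount of 0.1 TPM, no filter, a filter at 5 TPM, the table over all libraries, the replicate number as a block, the 4 libraries compared only, and leaving out each library.

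The 8 genes and all lists were chosen with earlier results of these data known. Outside the 8, named genes were up to 3 called genes per list and comparison with the largest difference (5 TPM or more in the higher line), a list of well-known ones (SCPEP1, PRCP, LGMN, TPP1, CST3, CSTB, CSTA, CTSS, CTSV, CTSF, LAMP1, LAMP2, PSAP, TFEB, TFE3, MITF, M6PR and IGF2R), 5 tested neighbours on each side of CPVL, and the 5 genes nearest in profile to CPVL and to CTSH. The values of 1 gene that this rule names are not reported here.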

Additional observations from a re-analysis of the deposited data

How the results depend on the processing

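With 2 libraries a line, the counts of calls depended on single libraries. Leaving out 1 library at a time gave 892 to 1726 calls over all tested genes in PC9-BrM4 against PC9 (2389 with all), 131 to 369 in PC9-AMG against PC9 (1096) and 1024 to 2886 in PC9-AMG against PC9-BrM4 (2720). Related lysosomal genes called were 9 to 21 (24 with all), 1 to 5 (11) and 15 to 39 (41), and genes of the set 3 to 4 (6), 1 to 3 (4) and 4 to 5 (4). The lowest count over all tested genes and over the related genes came without PC9 library 2 in the first comparison and without PC9-BrM4 library 1 in the last. In PC9-AMG against PC9, no filter gave 250 calls over all tested genes, 4 related genes and 1 gene of the set, a filter at 5 TPM gave 17 related genes, and median centring gave 2 genes of the set. In PC9-AMG against PC9-BrM4, no filter gave 1799 calls over all tested genes and 24 related genes, median centring 24 related genes and only the 4 libraries compared 25. The causes were not tested. Of 288 values of the 8 genes under the alternatives, 246 moved by less than the spread between libraries, 42 moved by more, and no called value changed sign. Of 1965 values of the other named genes, 145 lost a call and 32 gained one. Same-numbered libraries did not deviate together (correlations 0.0292, -0.0388 and 0.00267). A fit with the replicate block called 2483, 1298 and 2905 genes, 25, 12 and 40 related genes, and 6, 3 and 4 genes of the set. Depth is unknown, so no counting error can be given for low levels such as CPVL in PC9.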
